A study of Homo sapiens with 6 samples.

Results

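Transcripts of the EGF receptor family were followed in MDA-MB-231 cells, a line of triple-negative breast cancer. Cells received VNLG-152R, a small molecule developed as a degrader of the kinases MNK1 and MNK2, at 10 μM for 24 h, or its vehicle DMSO for the same time. Each group had 3 samples, and the labels name no other treatment. The 10 genes were chosen by name as the receptors EGFR, ERBB2 and ERBB3, the ligands AREG, EREG, HBEGF, TGFA, BTC and NRG1, and the intracellular inhibitor ERRFI1. All 10 were found among the 61552 gene identifiers of the count tables. All 10 also passed the expression filter, which kept 17084 genes for testing. The treatment was done in triplicate. Whether the triplicates were run on separate days or passages is not given in the sources used here, so p-values reflect the spread between these samples.

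EGF family receptors are tyrosine kinases of the cell surface that pair up when a ligand binds. EGFR binds amphiregulin (AREG), epiregulin (EREG), heparin-binding EGF (HBEGF), transforming growth factor alpha (TGFA) and betacellulin (BTC), ERBB3 binds neuregulin 1 (NRG1), and ERBB2 has no known ligand and acts as a partner for the others. The ligands are made as membrane proteins and are shed by ADAM proteases, and the active receptors signal through RAS and ERK and through PI3 kinase. ERRFI1, also called MIG6, binds the kinase domain of the active receptors and blocks them. Triple-negative breast cancers lack amplified ERBB2 and often carry abundant EGFR.

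Libraries held 60122936 to 82151816 counts assigned to genes, and each VNLG-152R library was deeper than each control. Read pairs outside annotated genes made up 2.63% to 3.17% of control libraries against 3.36% to 5.05% of treated ones, the highest being VNLG-152R replicate 2. Of 5 genes named as markers of MDA-MB-231 (VIM, CD44, KRT8, KRT18 and FN1), all were expressed, with summed levels of 7552 to 8201 CPM in controls against 5781 to 7335 CPM with VNLG-152R, where CPM is the TMM-normalized count scaled to a common library size. One of them, the mesenchymal filament gene VIM, fell (log2 fold change -0.39, edgeR adjusted p = 0.0472). Luminal breast markers summed to 33.1 to 34.2 CPM in controls against 32.7 to 36.1 CPM in treated libraries, with 4 of 6 at 1 CPM or more, and the defining estrogen receptor gene ESR1 was all but absent, at 0, 0 and 1 counts in the controls against 0, 0 and 8 in treated libraries. Markers of leukocytes summed to 2.88 to 3.35 and 2.13 to 3.15 CPM, with 1 of 4 at 1 CPM or more and 0 or 1 counts of CD3E. Markers of endothelium summed to 21.4 to 24.6 and 23.2 to 26.6 CPM, with 1 of 3 at 1 CPM or more. The part of these markers in the results was not tested.

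Promoters are shown for the neighboring ligand genes of chromosome 4 and for EGFR, because AREG and EREG lie 56.4 kb apart and AREG passed the test while EREG did not (their difference was not tested). Each is the 250 bases before a transcription start of RefSeq (GRCh38.p14). They are chr4:74444886-74445135 on the plus strand for AREG, chr4:74364895-74365144 on the plus strand for EREG, chr4:74794524-74794773 on the minus strand for BTC and chr7:55018767-55019016 on the plus strand for EGFR. Capitals mark matches on either strand to any of 7 motifs, namely the cyclic AMP response element (TGACGTCA), the AP-1 site (TGANTCA), the TATA box (TATAAA), the GC box (GGGCGG), an ETS site (CCGGAAGT), CCAAT and the sterol response element, searched by its consensus.
AREG: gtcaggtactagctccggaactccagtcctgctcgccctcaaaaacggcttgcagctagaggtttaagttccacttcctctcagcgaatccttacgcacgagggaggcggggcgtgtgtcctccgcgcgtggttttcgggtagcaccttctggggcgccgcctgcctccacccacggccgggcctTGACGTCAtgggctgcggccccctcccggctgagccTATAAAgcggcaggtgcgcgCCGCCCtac
EREG: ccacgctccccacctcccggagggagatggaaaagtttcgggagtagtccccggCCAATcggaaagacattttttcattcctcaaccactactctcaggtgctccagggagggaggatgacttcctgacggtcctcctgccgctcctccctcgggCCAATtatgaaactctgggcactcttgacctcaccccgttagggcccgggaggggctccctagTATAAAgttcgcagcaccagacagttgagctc
BTC: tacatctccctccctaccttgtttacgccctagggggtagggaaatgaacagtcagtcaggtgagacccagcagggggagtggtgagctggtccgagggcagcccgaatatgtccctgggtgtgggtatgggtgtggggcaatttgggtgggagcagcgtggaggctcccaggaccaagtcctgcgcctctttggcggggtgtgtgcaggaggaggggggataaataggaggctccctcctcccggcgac
EGFR: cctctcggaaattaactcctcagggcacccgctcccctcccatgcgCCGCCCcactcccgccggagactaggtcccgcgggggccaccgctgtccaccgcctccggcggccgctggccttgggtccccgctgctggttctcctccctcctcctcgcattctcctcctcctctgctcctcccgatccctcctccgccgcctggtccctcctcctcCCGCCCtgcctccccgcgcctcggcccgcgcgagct

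The AREG promoter held a cyclic AMP response element 65 bases before the start, a TATA box at 29 and a GC box at 9. Among 35116 promoters of the same length, 1.65% had the first of these, 10.7% had TATAAA and 42.6% had GGGCGG. EREG held CCAAT at 196 and 95 bases before its start, a motif in 32.0% of promoters, and a TATA box at 32. BTC held none of the 7 motifs, and this EGFR promoter held only GC boxes, at 204 and 36, in a sequence of 73.6% GC against a median of 58.0% over all promoters. A further EGFR start, not shown, held AP-1 sites at 232 and 136 bases before it and TATA boxes at 146 and 36, at 38.8% GC. AP-1 sites were in 6.57% of promoters, the ETS site in 3.42% and the sterol response element in 0.125%, and these were in none of the 4 promoters shown. A match is a description of letters and not evidence of a bound factor.

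Of the 10 genes, 2 fell with VNLG-152R and none rose. These were the ligands AREG and NRG1. Over all tested genes 1.43% fell and 3.76% rose (edgeR quasi-likelihood test, Benjamini-Hochberg adjusted p under 0.05). The 10 genes were chosen with earlier results of these data known, so the comparison of these shares is a description only. Without the adjustment, 2 of the 10 were higher and 2 lower at p under 0.05, where 12.8% of all tested genes were higher and 9.76% lower. By DESeq2 0 of the 10 were higher and 2 lower (5.39% and 2.79% of all genes), by limma-voom 0 and 1 (3.49% and 1.35%), with library size scaling 0 and 1 (3.6% and 1.28%), after a correction for transcript length 0 and 1 (2.56% and 1.06%), and with no expression filter 1 and 2 (3.27% and 1.5%). In either direction 5.19% of all genes were called in the reported fit. The median log2 fold change of the 10 was 0.02, and that of all tested genes was -0.00. The groups did not overlap for 3 of the 10 (EGFR, AREG and NRG1), and for 28.5% of all tested genes. In RNA from whole cultures, fewer cells that express a gene and less RNA per cell cannot be told apart.

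**Figure D1:**
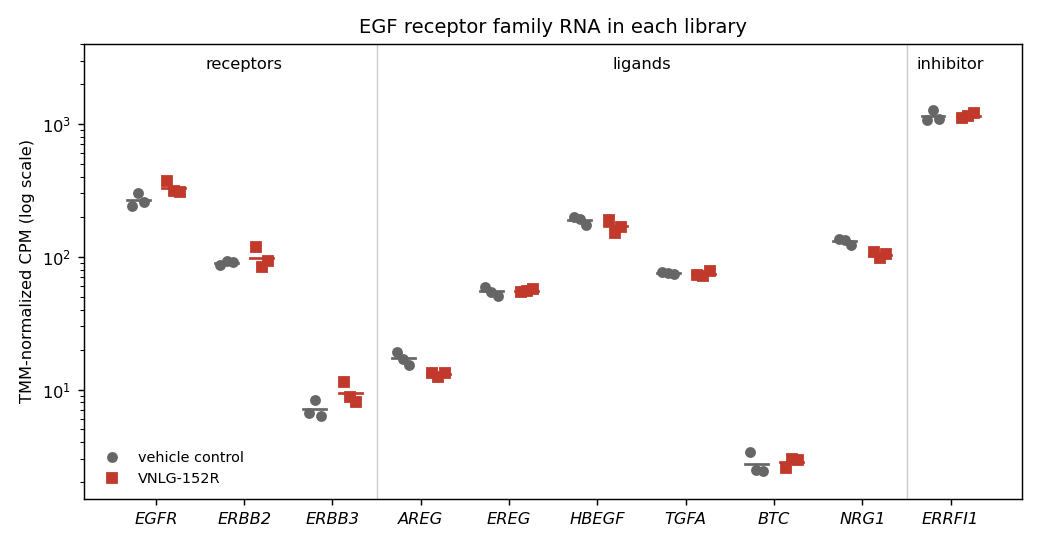
Level of each of the 10 genes in each library as CPM (log axis), for 3 vehicle control (grey circles) and 3 VNLG-152R libraries (red squares), with lines at the group means. NRG1 and AREG lie lower in every VNLG-152R library than in every control, EGFR lies higher, and the levels run from about 2.42 CPM for BTC to 1280.5 CPM for ERRFI1.

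Levels between genes were compared per kilobase of the merged exons of all annotated transcripts (CPM per kb). The order depends on this divisor. Before it, mean control levels were 267 CPM for EGFR against 189 for HBEGF, and 131 for NRG1 against 75.4 for TGFA. In controls ERRFI1 was highest at 273 ± 28.4 CPM per kb (SD, n = 3), followed by HBEGF at 62.6 ± 4.50, EGFR at 21.3 ± 2.57 and TGFA at 15.2 ± 0.244. The libraries of each of these genes did not overlap those of the next, which describes the spread between libraries and not the divisor. NRG1 (11.6 ± 0.694), AREG (10.4 ± 1.22), EREG (9.60 ± 0.766) and ERBB2 (8.75 ± 0.301) followed, and each of them overlapped its neighbor. BTC (0.984 ± 0.194) and ERBB3 (0.790 ± 0.122) were lowest and overlapped each other. With VNLG-152R the first 4 kept their order without overlap, at 276 ± 12.9, 56.2 ± 6.46, 26.3 ± 2.76 and 14.9 ± 0.612 CPM per kb (SD, n = 3). EREG (9.71 ± 0.237) and ERBB2 (9.54 ± 1.72) then came before NRG1 (9.07 ± 0.472) and AREG (7.91 ± 0.265). The libraries of EREG overlapped those of ERBB2, and those of ERBB2 overlapped NRG1. HBEGF was the most abundant ligand RNA, with 56.3% to 57.3% of the summed ligand level per kb in controls and 54.9% to 59.7% with VNLG-152R. EGFR made up 67.7% to 71.1% of the summed level of the 3 receptors in controls and 69.8% to 73.2% with VNLG-152R.

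Amphiregulin RNA fell. AREG lies on chromosome 4 from 74445134 to 74455009 (GRCh38), and its exons overlap no other annotated gene. It was at 19.3, 17 and 15.3 CPM in control replicates 1 to 3 and at 13.3, 12.5 and 13.3 CPM in VNLG-152R replicates 1 to 3, from 897 to 1174 counts per library. Each treated library was below each control, and the treated libraries lay closer together than the controls. The log2 fold change was -0.40 (standard error 0.10, 95% interval -0.62 to -0.18, edgeR adjusted p = 0.0423). The call sits near the threshold. It was lost when any library was left out, with adjusted p from 0.0517 without VNLG-152R replicate 1 to 0.136 without control replicate 1 (leaving out control replicate 2 gave 0.0925, control replicate 3 gave 0.0622, VNLG-152R replicate 2 gave 0.0975 and VNLG-152R replicate 3 gave 0.106). It was also lost with library size scaling (0.0544), with limma-voom (0.0519) and after a correction for transcript length (log2 fold change -0.33, adjusted p = 0.0999), while the log2 fold change stayed between -0.48 and -0.31 in all of these.

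Neuregulin 1 RNA fell as well. NRG1 lies on chromosome 8 from 31639386 to 32767959 and has 11.328 kb of exons, which overlap no other annotated gene. It was at 137, 134 and 122 CPM in controls and at 108, 97.0 and 104 CPM with VNLG-152R, and again each treated library was below each control. The log2 fold change was -0.35 (standard error 0.08, 95% interval -0.53 to -0.17, edgeR adjusted p = 0.0334). Of the fits with 1 library left out, only that lacking VNLG-152R replicate 1 still passed (adjusted p = 0.0284). Adjusted p was 0.10, 0.102 and 0.0798 when control replicate 1, 2 or 3 was left out, and 0.0836 and 0.097 for VNLG-152R replicates 2 and 3. After the correction for transcript length it was -0.47 (adjusted p = 0.00722). Gene-level counts do not separate the many isoforms of NRG1.

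The other 4 ligands did not pass. EREG, which lies next to AREG, was at 59.4, 54.6 and 50.7 CPM in controls and at 54.6, 54.9 and 57.1 CPM with VNLG-152R, so its treated libraries lay within the control range. It had a log2 fold change of 0.02 (95% interval -0.17 to 0.20, edgeR adjusted p = 0.931). Within each library the ratio of AREG to EREG, per kb, was 1.05 to 1.13 in controls against 0.792 to 0.843 with VNLG-152R. This ratio was chosen after the values were seen and is given as a description. AREG has 1.648 kb of exons and EREG 5.717 kb, and the part of length in the ratio was not tested.

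HBEGF, whose precursor is also the diphtheria toxin receptor, was at 199.9, 193 and 174 CPM in controls and at 190.4, 151.6 and 167 CPM with VNLG-152R. The groups overlapped through VNLG-152R replicate 1. The log2 fold change of HBEGF was -0.15 (95% interval -0.37 to 0.06, edgeR adjusted p = 0.379), so a fall of up to 0.37 was within the interval. TGFA was at 76.6, 75.4 and 74.2 CPM and at 72.8, 71.9 and 77.5 CPM, the narrowest interval of the ligands that did not pass (log2 fold change -0.03, -0.20 to 0.14, edgeR adjusted p = 0.872). BTC was scarce, with 150 to 246 counts per library, at 3.40, 2.49 and 2.42 CPM in controls and 2.57, 2.98 and 2.97 CPM with VNLG-152R. Its interval was the widest of the 10, from -0.32 to 0.39 around 0.04 (edgeR adjusted p = 0.914).

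None of the 3 receptors passed the test. EGFR, on chromosome 7 from 55019021 to 55211628, was at 240.2, 303 and 258 CPM in controls and at 369, 313 and 306 CPM with VNLG-152R. The lowest treated library was just above the highest control. For EGFR the log2 fold change was 0.30 (standard error 0.11, 95% interval 0.07 to 0.53, unadjusted p = 0.0147, edgeR adjusted p = 0.119). Antisense gene EGFR-AS1 covers 1.5% of its exons. ERBB3, the receptor for neuregulins, was at 6.66, 8.40 and 6.37 CPM in controls and at 11.3, 8.80 and 8.12 CPM with VNLG-152R. Its groups overlapped, since control replicate 2 lay above VNLG-152R replicate 3, and its log2 fold change was 0.40 (95% interval 0.08 to 0.71, unadjusted p = 0.0176, edgeR adjusted p = 0.132). With no expression filter ERBB3 passed (adjusted p = 0.0364), in a fit that called 1539 genes in all.

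ERBB2, the gene of HER2, was at 86.7, 92.1 and 92.0 CPM in controls and at 118, 84.3 and 92.8 CPM with VNLG-152R. The treated libraries lay on both sides of the controls. The fit gave a log2 fold change of 0.13 (95% interval -0.12 to 0.37, edgeR adjusted p = 0.547), while 7.4% of its exons lie under the antisense genes PGAP3 and MIEN1. VNLG-152R replicate 1 had the highest level of each of the 3 receptors in its group. Without it the log2 fold changes were 0.21 for EGFR, 0.25 for ERBB3 and -0.02 for ERBB2. Among controls, replicate 2 was highest for all 3 receptors, replicate 1 was highest for all 6 ligands and replicate 3 was lowest for all 6. Summed per kb, the receptor level over the ligand level was 0.242 to 0.305 in controls against 0.346 to 0.399 with VNLG-152R, a ratio also formed after the values were seen. All 3 receptors have over 8 kb of exons, and tested genes of that length had a median log2 fold change of 0.11. HBEGF, the most abundant ligand RNA, has 3.018 kb, and tested genes of 2 to 4 kb had a median of -0.06. The part of length in this ratio was not tested.

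ERRFI1, the feedback inhibitor and the most abundant of the 10 RNAs, was at 1068, 1280.5 and 1083 CPM in controls and at 1110.4, 1144 and 1216 CPM with VNLG-152R. Every treated library lay between the lowest and the highest control. Its log2 fold change was 0.02 (95% interval -0.19 to 0.23, edgeR adjusted p = 0.937), which leaves changes beyond 0.23 in either direction outside the interval. The antisense gene AL034417.4 covers 3.7% of its exons.

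**Figure D2:**
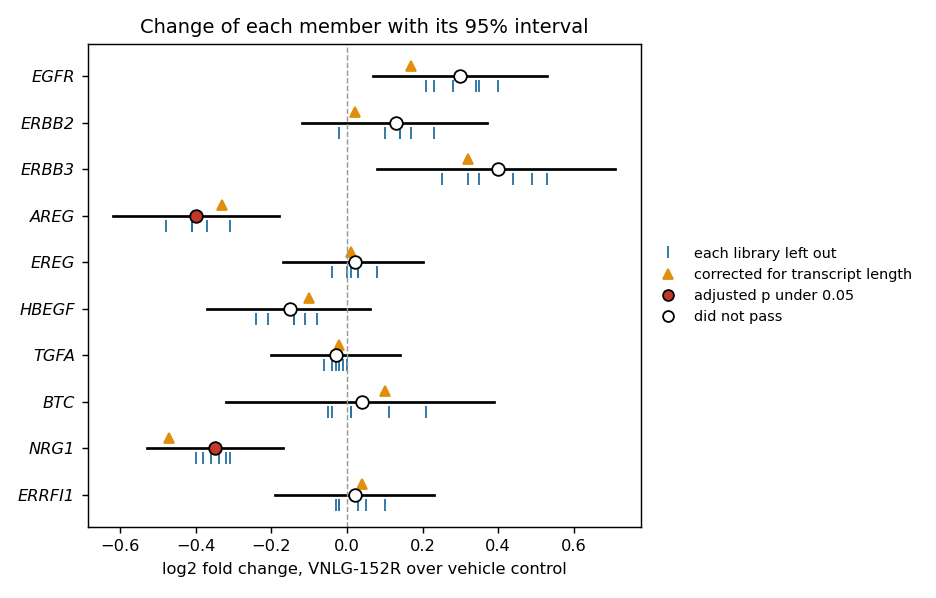
Log2 fold change of each of the 10 genes, treated over control, with its 95% interval from edgeR. Red circles passed at an adjusted p under 0.05 (AREG at -0.40 and NRG1 at -0.35), open circles did not, blue ticks are the values with each library left out, and orange triangles are the values corrected for transcript length.

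Log2 fold changes rose with exonic length over these libraries (Spearman's rho 0.332 across 12847 genes averaging 1 CPM or more, which are not independent replicates). The 3 receptor genes are long, with 12.521 kb of exons in EGFR, 10.321 kb in ERBB2 and 9.039 kb in ERBB3. Among 2990 tested genes over 8 kb the median log2 fold change was 0.11, and 9.23% were called higher and 0.702% lower. The length-corrected log2 fold changes were 0.17 for EGFR (adjusted p = 0.326), 0.02 for ERBB2 (0.925) and 0.32 for ERBB3 (0.215). NRG1, whose merged exons are as long as those of the receptors, lay on the other side of its length class. AREG has 1.648 kb of exons, and the 3465 tested genes up to 2 kb had a median of -0.07, with 1.3% called lower. The part of length in the values of the 10 genes was not tested beyond this correction.

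**Figure D3:**
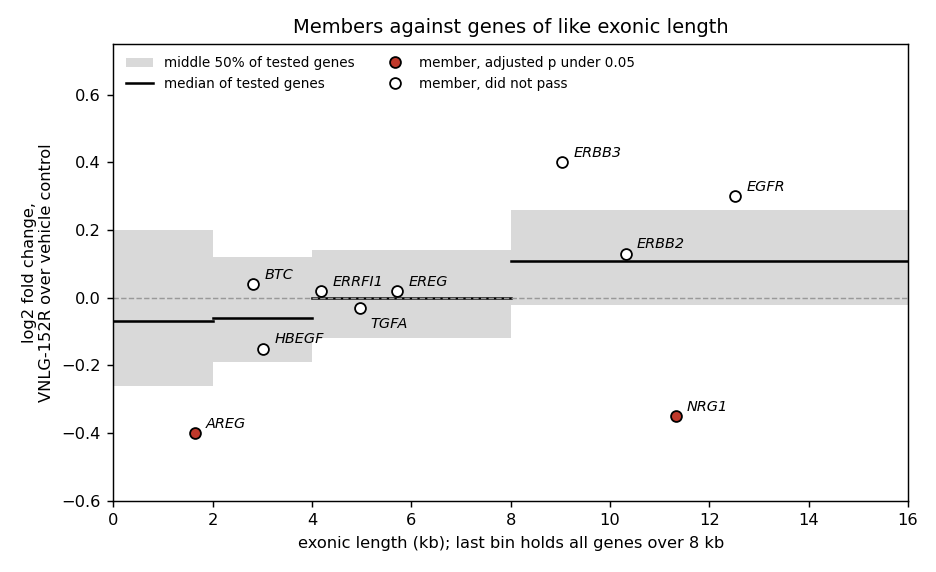
Log2 fold change, treated over control, against exonic length in kb for the 10 genes, over the median (black) and the middle 50% (grey) of tested genes in 4 length classes. EGFR and ERBB3 lie above the middle of genes over 8 kb, ERBB2 near their median of 0.11, and NRG1 at -0.35 below it.

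The rest of the family was sparse apart from EGF. EGF itself, the founding ligand of EGFR, was at 8.30, 9.13 and 10.6 CPM in controls and at 11.5, 11.8 and 11.4 CPM with VNLG-152R. The groups did not overlap, and its log2 fold change of 0.31 did not pass (95% interval 0.08 to 0.54, edgeR adjusted p = 0.112). ERBB4, the fourth receptor, had control counts of 21, 21 and 14 against 23, 37 and 33 in treated libraries (log2 fold change 0.45, 95% interval -0.21 to 1.12, edgeR adjusted p = 0.407). NRG2 had 22, 22 and 26 counts and 30, 23 and 47 (0.25, -0.40 to 0.89, edgeR adjusted p = 0.661). EPGN, the gene of epigen, had 7, 3 and 1 counts and 5, 11 and 12, NRG4 had at most 1 count per library, and NRG3 had 0 in every library, where 0 counts allow up to 3 counts or 0.0363 to 0.0498 CPM (counting error only). These 3 fell under the expression filter.

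Of 89 genes in 6 lists of the pathway, 85 were tested, 6 rose and none fell. This is 7.06% called higher, against 3.76% of all tested genes, and the median log2 fold change was 0.05. The lists were written with earlier results of these data known, so this comparison is a description only. Leaving out control replicate 3 brought the number that rose to 3, where 1.26% of all tested genes rose. Leaving out control replicate 1 or VNLG-152R replicate 3 brought it to 4, where 1.84% and 2.29% of all tested genes rose. After the length correction 5 were higher and 1 lower (2.56% and 1.06% of all genes), and DESeq2 called 8 higher and 0 lower (5.39% and 2.79%). Among 10 genes of ligand shedding, 2 rose and none fell, with a median of 0.18. TIMP3, an inhibitor of metalloproteases including the sheddase ADAM17, was at 543, 567 and 530.0 CPM in controls and at 775, 730.2 and 743 CPM with VNLG-152R (log2 fold change 0.45, standard error 0.08, edgeR adjusted p = 0.00793). ADAM19, a protease that can process neuregulins, was at 118, 138 and 128 CPM and at 191, 161 and 165 CPM (0.42, standard error 0.09, edgeR adjusted p = 0.0241). Each treated library was above each control for both genes. The call of TIMP3 was lost when control replicate 3 was left out (adjusted p = 0.0743). That of ADAM19 was lost for control replicate 1 (0.0868), control replicate 3 (0.108) and VNLG-152R replicate 3 (0.0636).

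Among 21 tested genes of receptor ubiquitination, sorting and inhibition, 2 rose and none fell, with a median of 0.04. Over all tested genes 3.76% rose and 1.43% fell. After the length correction 1 of the list was higher and 1 lower, against 2.56% and 1.06% of all tested genes. The gene called lower was EPN1, an endocytic adaptor named after its values were seen (log2 fold change -0.51, adjusted p = 0.0354, against -0.32 and 0.145 without the correction). PTPRJ, a receptor phosphatase that can act on EGFR, was at 260.0, 319 and 304 CPM in controls and at 444, 439 and 416 CPM with VNLG-152R, with no overlap. Its log2 fold change was 0.56 (standard error 0.09, edgeR adjusted p = 0.00529, and 0.00715 to 0.0303 when each library was left out). CBLB, a ubiquitin ligase for active receptors, was at 10.2, 12.0 and 11.3 CPM and at 14.0, 14.2 and 15.5 CPM (0.39, edgeR adjusted p = 0.0431). It passed without VNLG-152R replicate 1 (0.0391) and not without any other library (0.0613 to 0.151) or after the length correction (0.26, adjusted p = 0.146). Of 18 receptor adaptors and PI3 kinase subunits, none rose or fell with edgeR, DESeq2 or limma-voom, and 3 were higher and 0 lower at an unadjusted p under 0.05 (12.8% and 9.76% of all tested genes). Their log2 fold changes ran from -0.23 to 0.29, with a median of -0.01.

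Of 15 genes of the RAS-ERK cascade, 1 rose and none fell (3.76% and 1.43% of all tested genes), with a median of -0.03. That gene was NF1, which switches RAS off, at 21.7, 24.3 and 23.1 CPM in controls and 30.8, 35.7 and 32.3 CPM with VNLG-152R. Its log2 fold change was 0.52 (standard error 0.09, edgeR adjusted p = 0.00618), and 0.26 after the length correction, where it did not pass (adjusted p = 0.117). NF1 has 27.13 kb of exons. The lowest value of the list, picked out after the values were seen, was that of the RAS gene HRAS, with a log2 fold change of -1.01 that did not pass (95% interval -1.86 to -0.17, edgeR adjusted p = 0.147). It rested on control replicate 2, at 8.2 CPM against 4.08 and 2.19 CPM in the other controls, and was -0.40 without that library (edgeR adjusted p = 0.514). HRAS was called lower with no expression filter (adjusted p = 3.86e-08) and in no other fit. Of 18 RNA targets of ERK, 1 rose and none fell, against the same shares of all tested genes, with a median of 0.03. That gene was EGR1, an immediate early transcription factor, at 20.8, 30.6 and 23.6 CPM in controls and 43.1, 37.8 and 41.0 CPM with VNLG-152R. Its log2 fold change was 0.70 (standard error 0.12, edgeR adjusted p = 0.00749, and 0.000785 to 0.0488 when each library was left out). DESeq2 called 3 of these targets higher and 0 lower (5.39% and 2.79% of all genes).

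**Figure D4:**
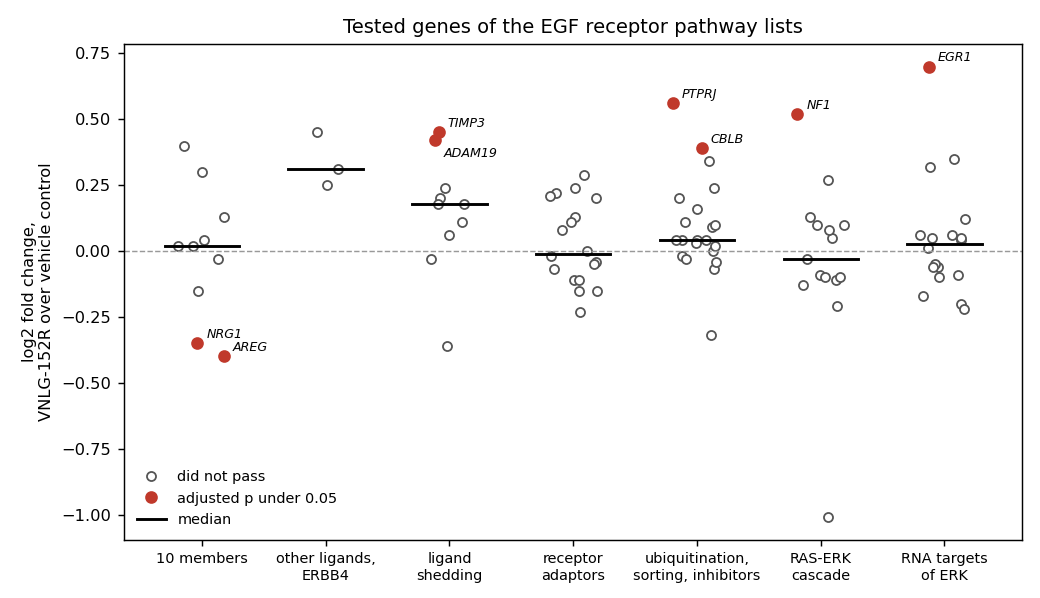
Log2 fold change, treated over control, of each tested gene of the 10 and of the 6 pathway lists, with red points at an adjusted p under 0.05 and a black line at the median of each list. AREG and NRG1 are the 2 called genes below 0, and TIMP3, ADAM19, PTPRJ, CBLB, NF1 and EGR1 the 6 above it.

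NRG1 had the smallest p of the 10, and the genes with the most similar pattern over the 6 libraries were FKBP5, POLR1E and SPECC1L, with Pearson's r of 0.990, 0.989 and 0.987 for log2 CPM. FKBP5 encodes a co-chaperone of steroid receptors, POLR1E a subunit of RNA polymerase I and SPECC1L a protein of the cytoskeleton. FKBP5 was at 40.8, 40.2 and 38.6 CPM in controls and 36.6, 34.2 and 36.3 CPM with VNLG-152R, a log2 fold change of -0.16 that did not pass (edgeR adjusted p = 0.261). POLR1E (-0.31, edgeR adjusted p = 0.0518) and SPECC1L (-0.23, edgeR adjusted p = 0.129) did not pass either. Among 9269 genes averaging 10 CPM or more, 341 had an r over 0.9, and with 6 libraries in 2 groups such values are a description only.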

How the data were processed

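PolyA RNA of MDA-MB-231 cells was made into strand-specific libraries and sequenced in paired-end mode. The authors deposited unnormalized counts of reads per Ensembl gene, with 1 table for each of 6 samples. The submitters' processing notes name HISAT, HTSeq, DESeq and GRCh38, without versions. No annotation release or strand setting is given in the sources used here, so reads of antisense partners cannot be set apart. Symbols matched 42047 of 61552 identifiers and all list genes. Exonic lengths, positions and overlaps come from GENCODE 29 (GRCh38). The length of a gene is that of the merged exons of all its annotated transcripts, and the length correction and the levels per kb used it. Special HTSeq classes were left out of totals.

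Groups were compared in R 4.3.3 with edgeR 4.0.16 (TMM, filterByExpr, quasi-likelihood test, two-sided, 17084 genes, 4 residual degrees of freedom, biological coefficient of variation 0.105). Benjamini-Hochberg adjustment covered every tested gene, and calls needed an adjusted p under 0.05. The standard error is the absolute log2 fold change over the square root of F. An exact permutation test of 3 against 3 cannot go below p = 0.10. In simulated counts of 16842 genes at these depths, 70.1% of genes changed 1.5-fold and 88.1% of those changed 2-fold were recovered. Every simulated gene had the same dispersion and no length trend. Changes smaller than 1.5-fold, such as those of AREG (fold 0.758) and NRG1 (0.785), were not simulated, so recovery at their size is not known. Alternatives were RLE factors, library size only, no filter, a filter at a mean of 1 CPM, DESeq2 1.42.0, limma-voom (limma 3.58.1), a replicate block, each library left out, and a length correction (lowess, span 0.3), also with the block. The members and lists were chosen with earlier results of these data known, and the lists were written from memory. Named genes were the 10 members, the other family genes, up to 4 called genes per list and direction with the smallest p, and the 3 genes most correlated with the member of smallest p. VIM, ESR1 and CD3E are named as markers. Promoters come from RefSeq. They were matched by symbol with chromosome 8 left out, which excludes NRG1, and 8 of the 10 members had a promoter. Figures were drawn with matplotlib 3.10.9.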

Additional observations from a re-analysis of the deposited data

Results flagged for a closer look

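Read pairs outside annotated genes took a higher share of every VNLG-152R library than of every control, with a mean of 3.97% (3.36% to 5.05%) against 2.95% (2.63% to 3.17%). These pairs enter none of the comparisons. Without VNLG-152R replicate 2, which had the highest share, the log2 fold change of AREG was -0.37 (edgeR adjusted p = 0.0975) and that of NRG1 was -0.31 (edgeR adjusted p = 0.0836). The part of this share in the values of either gene was not tested.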

How the results depend on the processing

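The 887 genes called in all became 1539 with no expression filter, 1397 with DESeq2, 397 with the replicate block and 260 with the replicate block and length correction, and 264 to 948 when each library was left out. No family member was called higher except 1, ERBB3, with no expression filter. The number called lower was 2, and it was 1 with library size only, limma-voom or the length correction. With the length correction and replicate block it was also 1 (0.335% of all genes), and with the replicate block alone 0 (0.509%). When each library was left out it was 0 to 1, where 0.251% to 1.98% of all genes were called lower. The replicate block rested on shared numbers alone, since deviations of same-numbered libraries correlated at -0.192, -0.173 and -0.114, and under it AREG and NRG1 had log2 fold changes of -0.39 and -0.35 (edgeR adjusted p = 0.121 and 0.129). When each library was left out, 4 members that did not pass changed sign, with log2 fold changes from -0.02 to 0.23 for ERBB2, -0.04 to 0.08 for EREG, -0.05 to 0.21 for BTC and -0.03 to 0.10 for ERRFI1. The cause of these differences was not tested. The block also ended the calls of TIMP3 (adjusted p = 0.0614), ADAM19 (0.0887) and CBLB (0.129). It left 3 of the 85 tested pathway genes higher, where 1.81% of all genes were higher. With the length correction added, 2 were higher and 1 lower (1.22% and 0.335% of all genes). With all 6 libraries none of the members and none of the 6 pathway genes called changed sign under any alternative. BTC, ERBB4 and NRG2 are limited by few counts.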
